A study of Mus musculus with 2 samples.

Results

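The genes described here are 9 transcription factor genes known for work in neural crest and sensory neurons: the AP-2 genes Tfap2a, Tfap2b and Tfap2c, the Brn3 genes Pou4f1, Pou4f2 and Pou4f3, the Snail genes Snai1 and Snai2, and the homeobox gene Drgx. Their accessible sites were read from ATAC-seq, in which the Tn5 transposase cuts and tags open chromatin. The cells were GFP-positive and sorted by FACS from embryonic day 10.5 embryos of Hb9::GFP mice of the C57/Bl6 strain. In these mice GFP is made from sequences of the motor neuron gene Hb9 (Mnx1), and the labels name the cells as spinal motor neurons. The labels give 1 group of 2 replicates and no second genotype, treatment or tissue. A site was assigned to a gene when its summit lay inside the gene's span, or within 100 kb of the gene when no other protein-coding gene had a nearer end. This gave 103 entries (summits) in 75 intervals, of 137849 entries in 103795 intervals on chromosomes 1 to 19, X and Y. The data are 1 list pooled over both replicates. No value below therefore has a replicate error, and no test between samples could be run.

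Neural crest cells leave the dorsal edge of the neural tube and form, among other tissues, the sensory neurons and glia of the dorsal root ganglia. AP-2 factors act at the border of the neural plate and in early crest. Snail factors are zinc finger repressors that act when cells leave an epithelium, and Brn3 factors carry a POU domain and act in sensory neurons after they have left the cell cycle. Drgx is a paired-like homeobox factor of sensory neurons and of the dorsal horn that they connect to. Motor neurons arise in the ventral tube, and none of the 9 genes is a usual marker of them, although Pou4f1 is also made by interneurons of the dorsal cord. An open site is not expression, and a summit with few reads may be open in few cells or weakly open in many, which cannot be told apart here.

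All 9 genes had at least 1 entry, as did 83.0% of the 21887 protein-coding genes. The number of entries ran from 2 at Snai2 to 22 at Tfap2b, with a median of 11 per gene against 3 over all protein-coding genes. Between these lay Tfap2a with 20, Pou4f1 with 13, Pou4f2 and Pou4f3 with 11 each, Tfap2c with 10, Snai1 with 9 and Drgx with 5. The Tfap2 and Pou4f genes thus held most sites, and Snai2 and Drgx few. Of the 9 genes, 6 had 10 or more entries (16.4% of all protein-coding genes did), and 2 had 20 or more (5.31%). With 1 entry per interval, 2 had 10 or more (10.8% of all genes) and 0 had 20 or more (3.06%), and when genes of every type could be the nearest, 3 had 10 or more (11.2%). Length of sequence matters for such counts, since a gene with distant neighbours can collect more. Per 100 kb of territory, meaning the gene and the sequence nearest to its ends within the reach, the 9 genes held 10.4 entries and all protein-coding genes 6.19. By this measure Pou4f2 (19.2) and Snai1 (18.7) came first, followed by Tfap2b (14.9), Pou4f3 (12.8), Pou4f1 (11.7) and Tfap2a (10.8). Drgx had 7.60, Tfap2c 6.73 and Snai2 1.45. Of all protein-coding genes, 10.7% were at least as dense as Pou4f2, 11.3% as Snai1, 17.1% as Tfap2b and 21.5% as Pou4f3. The share was 24.6% for Pou4f1, 27.4% for Tfap2a, 40.8% for Drgx, 45.6% for Tfap2c and 80.0% for Snai2. Pou4f2 and Snai1, with territories of 57.3 kb and 48.0 kb, moved to the front, and only Snai2 stayed well below the value of all genes.

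**Figure D1:**
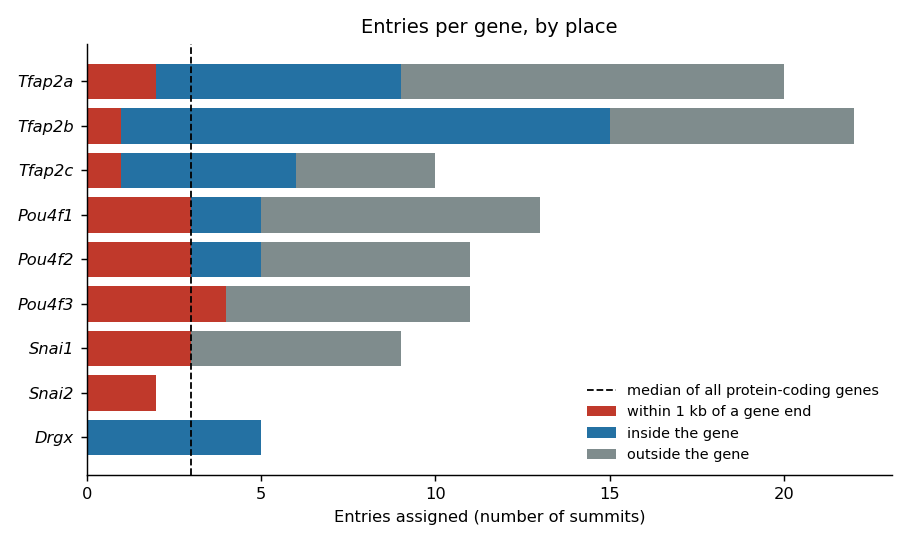
Number of entries assigned to each of the 9 genes, split by place: within 1 kb of a gene end, further inside the gene, or outside it; the dashed line is the median of 3 over all protein-coding genes. Tfap2b and Tfap2a hold 22 and 20 entries, Snai2 holds 2, both at a gene end, and Drgx holds 5, all inside the gene.

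The entries of the 9 genes had folds and reads close to those of all entries. Fold, the authors' ratio of reads at the summit to the local background, had a median of 3.13 over the 103 entries and 3.14 over all entries. Reads at the summit, recovered from the deposited fold and p-value, had a median of 25 over the 103 entries and 24 over all entries. The highest was 12.3-fold, and 3 of the 9 genes had an entry of 10-fold or more, as had 29.8% of all genes with an entry. Of the 103 entries, 30 (29.1%) reached 4-fold against 35.6% of all entries. A q-value of 0.05 or more was carried by 19 entries (18.4%), against 17.7% of all entries. The local background was higher, a difference that was not tested: 17.5% of the 103 entries lay at the genome-wide background of 5.37 reads, against 45.4% of all entries. Most summits at these genes thus sat in stretches with more reads around them, where the same number of reads gives a lower fold.

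By place, 19 of the 103 entries (18.4%) lay within 1 kb of an end of their gene, 35 (34.0%) further inside and 49 (47.6%) outside. Over all pairs of an entry and a gene these shares were 21.4%, 46.4% and 32.3%. Of the 9 genes, 8 had a summit within 1 kb of an end, and 65.5% of all protein-coding genes did. The strongest such summit of each gene had a median of 5.30-fold, against 8.17-fold over all genes with one. Only Snai1 and Snai2 were above that value of all genes. In the lists of related genes described below, the same median was also lower than over all genes. It was 4.79-fold for paralogues and relatives, 4.90 for other neural crest genes, 5.52 for other sensory neuron genes and 4.73 for dorsal partners. The ends of the AP-2 genes were the weakest, at 2.04 to 3.14-fold. For 7 of the 9 genes the strongest entry was not at a gene end, as for 42.7% of all genes with an entry.

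Starts of transcription could be examined for Tfap2a, Tfap2b, Pou4f1, Pou4f2, Snai1 and Drgx, for which RefSeq promoter sequences of the GRCm38.p6 assembly were at hand. Tfap2a has a pair of listed starts, so these genes have 7 promoters, each running from 250 bases before the start to 50 after it. All 6 genes had a summit within 1 kb of a listed start, as did 66.5% of the 17492 genes with one. The promoters of 4 genes are shown because an entry covers all of the window or has its summit in it. Capitals mark matches to 9 motifs searched on both strands: TFAP2 (GCCNNNGGC), the Snail-type E-box (CAGGTG), homeobox (TAATTA), Onecut (ATTGAT), Ebf (TCCC and GGGA, 2 bases apart), the CCAAT box (CCAAT), the TATA box (TATAAA), the GC box (GGGCGG) and Sox (ACAATG). Snai1 is at chr2:167537945-167538244 on the plus strand, Pou4f1 at chr14:104467950-104468249 on the minus strand, Tfap2b at chr1:19211804-19212103 on the plus strand and Drgx at chr14:32599677-32599976 on the plus strand.
Snai1: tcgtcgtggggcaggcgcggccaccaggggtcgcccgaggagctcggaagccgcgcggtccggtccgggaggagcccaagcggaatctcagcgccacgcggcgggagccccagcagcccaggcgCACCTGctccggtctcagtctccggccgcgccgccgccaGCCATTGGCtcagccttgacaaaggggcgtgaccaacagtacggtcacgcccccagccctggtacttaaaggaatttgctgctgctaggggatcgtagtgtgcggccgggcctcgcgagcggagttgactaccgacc
Pou4f1: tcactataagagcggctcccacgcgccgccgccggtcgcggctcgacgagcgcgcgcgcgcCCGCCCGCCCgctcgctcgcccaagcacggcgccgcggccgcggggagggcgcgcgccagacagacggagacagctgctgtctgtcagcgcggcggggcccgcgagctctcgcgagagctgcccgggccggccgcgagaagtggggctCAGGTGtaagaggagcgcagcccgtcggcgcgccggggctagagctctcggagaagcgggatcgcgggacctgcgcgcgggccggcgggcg
Tfap2b: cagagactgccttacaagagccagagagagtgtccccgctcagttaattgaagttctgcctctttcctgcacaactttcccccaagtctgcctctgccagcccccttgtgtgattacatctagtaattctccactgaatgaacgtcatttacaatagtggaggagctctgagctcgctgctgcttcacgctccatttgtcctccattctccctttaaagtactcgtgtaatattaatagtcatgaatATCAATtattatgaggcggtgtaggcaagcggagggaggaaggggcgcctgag
Drgx: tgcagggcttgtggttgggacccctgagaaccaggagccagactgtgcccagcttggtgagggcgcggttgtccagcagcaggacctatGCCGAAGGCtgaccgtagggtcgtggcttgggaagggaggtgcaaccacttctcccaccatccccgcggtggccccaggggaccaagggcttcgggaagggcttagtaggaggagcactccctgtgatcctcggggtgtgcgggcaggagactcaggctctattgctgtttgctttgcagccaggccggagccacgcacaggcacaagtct

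The promoter of Snai1 lay wholly inside an interval, and its summit of 11.2-fold and 150 reads fell 87 bp before the listed start. The TFAP2 match GCCATTGGC of this promoter begins at that same base, and a CCAAT box lies inside the match. An E-box, CACCTG, begins 126 bp before the start. The promoter of Pou4f1 was also wholly inside an interval, with a summit of 6.69-fold and 146 reads 6 bp after the start. It is rich in CpG, with 57 in 300 bases, and holds an E-box that begins 41 bp before the start and a pair of overlapping GC boxes. Tfap2b differed from both: its summit lay 27 bp after the start but had only 2.87-fold and 25 reads. That promoter holds 8 CpG and an Onecut match, ATCAAT, that begins 3 bp before the start. The Drgx promoter was covered throughout by an interval whose summit, 4.11-fold and 36 reads, lay 297 bp before the start, and it holds a TFAP2 match, GCCGAAGGC. Median GC content was 63.7% in the 7 promoters and 52.7% in the 32851 promoters of the table. The median number of CpG per 300 bases was 15 in the 7 promoters and 7 in all promoters, so the 8 of Tfap2b are near the latter.

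A TFAP2 match was present in 2 of the 7 promoters (Snai1 and Drgx) and in 16.6% of all promoters. The E-box was present in 2 (Snai1 and Pou4f1) and in 20.2%, the homeobox motif in 1 (Tfap2a) and in 5.29%, the Onecut motif in 1 (Tfap2b) and in 7.54%, and the CCAAT box in 1 (Snai1) and in 37.4%. GC boxes were in 4 promoters, both of Tfap2a and those of Pou4f1 and Pou4f2, and in 35.7% of all. The Ebf, TATA box and Sox motifs were in 0 of the 7, against 0.904%, 13.6% and 12.6% of all promoters. With 7 promoters these counts say only which letters are present.

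Among the AP-2 genes, Tfap2a had the single site of highest fold and Tfap2b the most entries. Median fold was 2.67 at Tfap2a, 2.82 at Tfap2b and 2.38 at Tfap2c, and median reads were 23, 19 and 33 in the same order. Tfap2a encodes AP-2 alpha, a regulator of the neural plate border and crest, and spans chromosome 13, 40713802 to 40738238. Its 20 entries ran from 1.98 to 10.5-fold with a median of 2.67 and from 12 to 105 reads. The strongest pair shared an interval inside the gene at 40722626 to 40723676, with 10.5-fold and 105 reads at the one summit and 8.38-fold and 82 reads at the other. They lay more than 10 kb from either listed start, 10635 bp and 10896 bp from the nearer one. The next strongest, 8.01-fold and 50 reads at 40649663 to 40650278, lay 63.9 kb beyond the far end of the gene. A summit of 5.16-fold and 32 reads followed at 40712343 to 40712667, 1.33 kb beyond the far end. By contrast the summit nearest a listed start had 2.26-fold and 25 reads, and the gene's ends had 3.14-fold (27 reads) and 2.03-fold (12 reads). The strongest chromatin signal of Tfap2a thus lay inside and beyond the gene rather than at its start.

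Tfap2b encodes AP-2 beta, which acts in crest derivatives and in sympathetic neurons, and spans chromosome 1, 19208908 to 19238845. Its 22 entries were many and even, from 1.85 to 4.31-fold with a median of 2.82, and from 15 to 40 reads. Only 1 of them reached 4-fold. Of the 22, 14 lay inside the gene more than 1 kb from its ends, 7 outside and 1 at an end (3.13-fold, 28 reads). The strongest were 3 summits of one interval at 19209757 to 19210509, with 4.31, 3.99 and 3.91-fold and 40, 37 and 36 reads, between 1.12 and 1.44 kb inside the lower-coordinate end. All entries lay within 15.96 kb of the gene, on a background of 5.37 to 8.51 reads. The gene was thus covered by a row of weak sites without a dominant one. Of the 22, 5 had a q-value of 0.05 or more. So had 5 of 20 at Tfap2a, 3 of 10 at Tfap2c, 3 of 13 at Pou4f1, 2 of 9 at Snai1 and 1 of 11 at Pou4f2. Pou4f3, Snai2 and Drgx had 0.

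Tfap2c encodes AP-2 gamma, best known from trophoblast, germ cells and early ectoderm, and spans chromosome 2, 172545678 to 172558622. Of its 10 entries 5 lay inside the gene, led by 6.07-fold and 97 reads at 172549202 to 172549899, then 4.33-fold and 68 reads at 172550533 to 172551197. Its strongest entry by fold lay 55.3 kb beyond the higher-coordinate end at 172613669 to 172614296, with 6.59-fold and 45 reads. The site inside the gene had more reads but a lower fold, on a background of 15.1 reads against 5.98 at the distant site. The single entry at a gene end had 2.04-fold, 12 reads and a q-value above 0.05, and no summit lay within 1 kb of the lower-coordinate end.

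**Figure D2:**
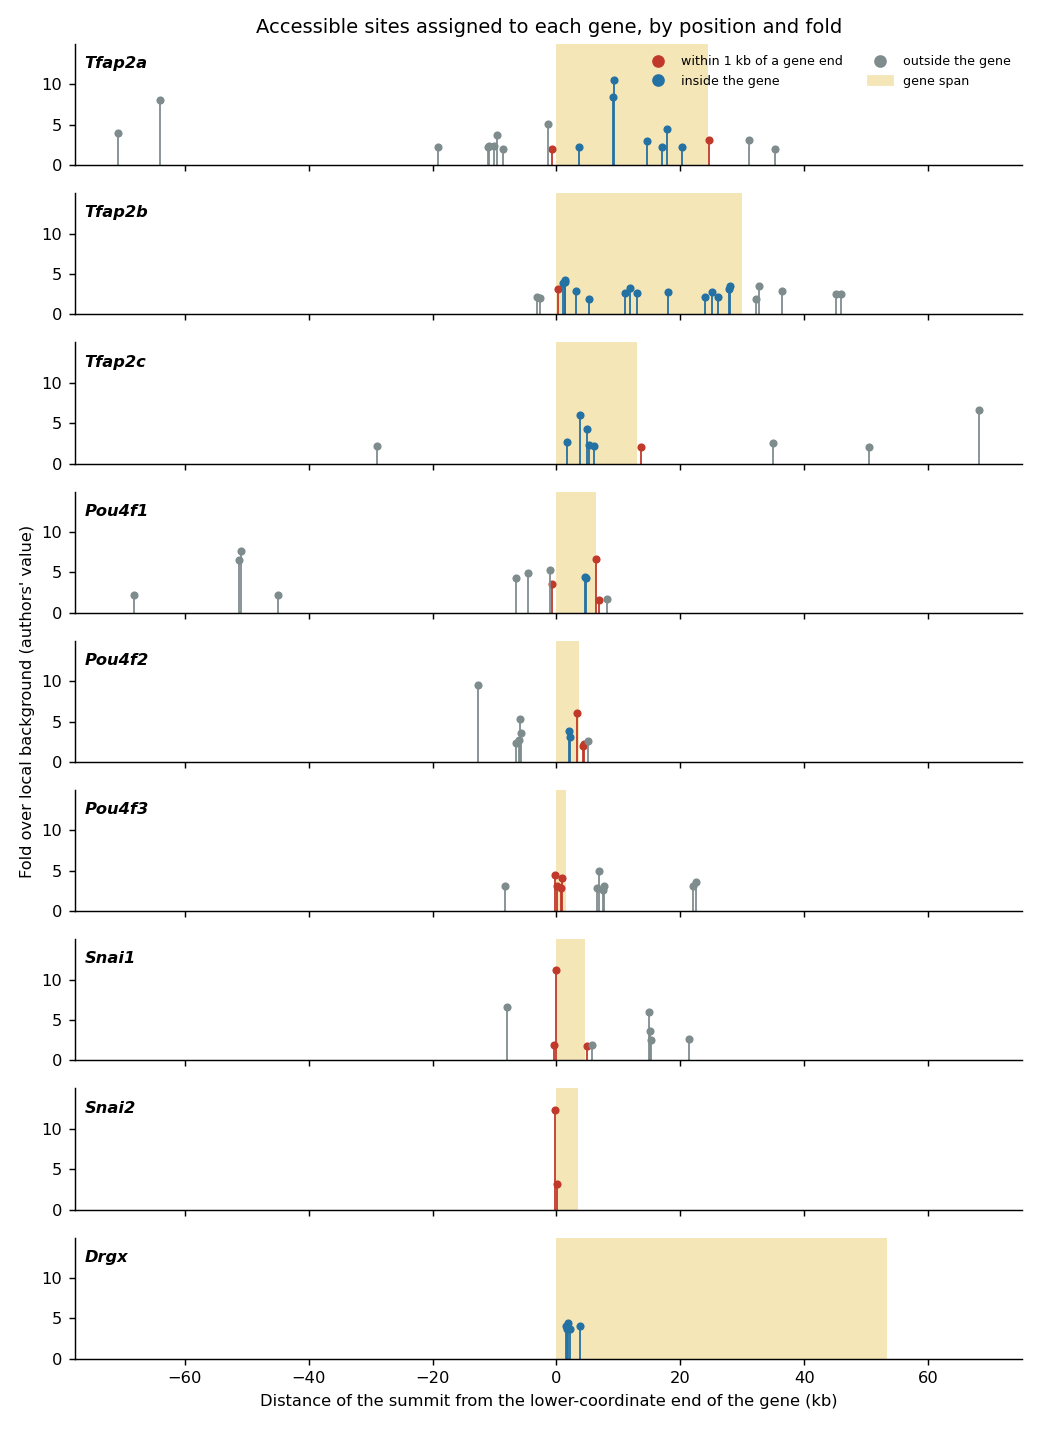
Each entry drawn at the distance of its summit from the lower-coordinate end of its gene (kb), with its height as fold over local background; colours give the place and the shaded band is the gene span. Strong sites stand inside Tfap2a (10.5-fold), beyond Pou4f1 (7.68-fold) and Pou4f2 (9.52-fold), and at one end of Snai1 (11.2-fold) and Snai2 (12.3-fold), while Tfap2b carries 22 low ones.

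Pou4f1 and Pou4f2 had sites both at their starts and beyond their far ends, while the strand of Pou4f3 was not listed. The best gene-end folds of the 3 Brn3 genes (6.69, 6.09 and 4.51) were below the 8.17 of all genes. Pou4f1 encodes Brn3a, a regulator of sensory neuron identity, and spans chromosome 14, 104461675 to 104468118 on the minus strand. Its 13 entries ran from 1.57 to 7.68-fold with a median of 4.33 and a median of 52 reads, the highest read median among the genes with 3 or more entries. The strongest by fold, 7.68-fold with 61 reads, lay 50.9 kb beyond the far end at 104410190 to 104411089, and the same interval held a summit of 6.59-fold with 52 reads. The start, with the 6.69-fold and 146 reads given above, lay in an interval of 1463 bp at 104467279 to 104468741 and came second by fold. Inside the gene lay a pair of 4.45-fold (92 reads) and 4.33-fold (90 reads). Just beyond the far end were 5.25-fold (74 reads) at 1.11 kb, 4.90-fold (78 reads) at 4.55 kb and 4.28-fold (50 reads) at 6.57 kb. The background at Pou4f1 rose up to 23.7 reads, the highest among the 9 genes, so its folds are lower than its reads alone would give.

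Pou4f2 encodes Brn3b, best known from retinal ganglion cells, and spans chromosome 8, 78433009 to 78436647 on the minus strand. Its strongest entry, 9.52-fold and 70 reads at 78420160 to 78420826, lay 12.7 kb beyond the far end of the gene. A single interval at 78426481 to 78427739 held 4 summits of 2.41 to 5.31-fold. Near the start the strongest summit had 6.09-fold and 60 reads, 320 bp after the listed start, and 2 further summits before the start had 2.17-fold and 1.99-fold. The remaining entries had 2.64 to 3.85-fold.

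Pou4f3 encodes Brn3c, needed by the hair cells of the inner ear, and is a short gene on chromosome 18, 42394597 to 42396093. Its 11 entries lay between 2.64 and 4.98-fold and between 17 and 34 reads, the narrowest range of the Brn3 genes. All 11 had a q-value below 0.05. Its ends had 4 summits, of 4.51-fold (31 reads), 4.11-fold (30 reads), 3.09-fold and 2.93-fold (21 reads each). The strongest lay outside, 5.39 kb beyond the higher-coordinate end, in an interval of 1544 bp at 42400901 to 42402444 that held 4 summits of 2.64 to 4.98-fold. By highest fold Pou4f2 (9.52) came before Pou4f1 (7.68) and Pou4f3 (4.98), and by most reads at a summit Pou4f1 (146) came before Pou4f2 (70) and Pou4f3 (34). No replicate error is available for either order.

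The Snail genes had the strongest gene-end sites of the 9, and differed in what lay around them. Snai1 encodes Snail and spans chromosome 2, 167538195 to 167542814. Besides the 11.2-fold summit at its start, in an interval at 167537547 to 167538387, it had 6.61-fold and 64 reads 8.03 kb before the start at 167529867 to 167530369. It also had 6.02-fold and 40 reads 10.2 kb beyond the far end at 167552767 to 167553529. The other 6 entries were between 1.74 and 3.59-fold. Snai2 encodes Slug, a marker of migrating crest, and spans chromosome 16, 14705852 to 14709395. It had a single interval, at 14705373 to 14706393, with 12.3-fold and 109 reads 175 bp outside the lower-coordinate end and 3.14-fold and 27 reads 126 bp inside it. No other entry lay within 100 kb of Snai2, and it was the only one of the 9 genes without a distal entry, meaning a summit more than 1 kb from every protein-coding gene end. Of all protein-coding genes, 66.9% had at least 1 distal entry. The territory of Snai2 was 137.8 kb and that of Snai1 48.0 kb.

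Drgx, listed as Prrxl1 in the gene table, spans chromosome 14, 32595867 to 32649246, where Ercc6 separates it from the motor neuron genes Chat and Slc18a3. Its 5 entries were alike, with 3.64 to 4.41-fold and 32 to 39 reads on a background of 8.00 to 8.09 reads. Of them, 4 shared an interval of 1227 bp at 32597174 to 32598400, and the fifth lay at the listed start. No summit lay within 1 kb of an annotated end or in the rest of the gene, and none outside the gene was assigned to it. Within 100 kb of its span there were 12 entries, of which 7 belonged to other genes by the rule. The median of 4.08-fold was the second highest among the genes with 3 or more entries, after Pou4f1. All 5 had a q-value below 0.05.

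**Figure D3:**
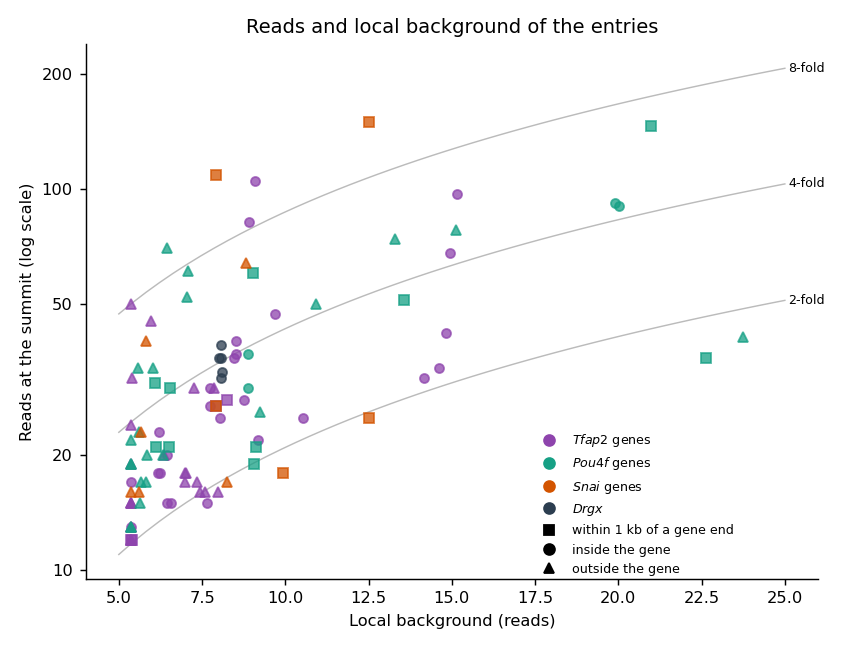
Reads at the summit (log scale) against the local background in reads for the 103 entries, coloured by gene family and with a marker for place; grey lines are 2, 4 and 8-fold. The start of Pou4f1 (146 reads) and that of Snai1 (150 reads) have about the same reads, but the background of 21.0 reads at Pou4f1 against 12.5 at Snai1 puts them at 6.69 and 11.2-fold.

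Sites outside the genes lay mostly beyond the far end. For the 6 genes with a listed strand, 31 of 38 outside entries (81.6%) were on the far side and 7 on the start side, against 51.2% on the far side over all genes with a listed strand. The far side also held 72.4% of the outside territory of these genes, against 46.9% over all genes. Per 100 kb, the 6 genes had 8.69 entries on the far side and 5.16 on the start side, and all genes had 4.59 and 3.87. The genes differed. Pou4f2 had 5 entries in 19.3 kb of far side and 1 in 34.3 kb of start side, and Tfap2a had 9 in 100 kb and 2 in 60.8 kb. Pou4f1 had 7 in 100 kb and 1 in only 4.7 kb, and Tfap2b 5 in 100 kb and 2 in 17.5 kb, so that per length their start sides held more. No test of this difference was run.

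The reach of 100 kb lies near few entries. The farthest entry kept was 70.7 kb from Tfap2a, with 3.93-fold and 24 reads. Just beyond the reach, and still nearest to one of the 9 genes, lay entries at 101.1 kb from Pou4f1 (2.67-fold, 16 reads), 103.3 kb from Tfap2c (2.03-fold, 12 reads) and 107.2 kb from Tfap2a (2.98-fold, 18 reads). Pou4f1 had 11 such entries in all, in the long stretch between it and Ednrb.

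Related genes also carried many sites. A gene-end summit was present at 65.5% of all protein-coding genes, against which the counts below can be read. Other neural crest genes (16 genes) had a median of 14.5 entries per gene, and 15 of 16 had a gene-end summit. The exception, Ets1, had 15 entries away from gene ends, up to 14.46-fold with 181 reads. Sox5 had 103 entries over a territory of 1153.9 kb, Sox9 31 and Pax7 24. Other sensory neuron genes (19 genes) had a median of 15, led by Eya1 with 31, Ntrk2 with 26 and Ntrk3 with 24, and 13 of 19 had a gene-end summit. The dorsal spinal cord partners of Drgx (12 genes, Pou4f1 among them) had a median of 13.5, led by Pax2 with 48 and Lmx1b with 33, and 12 of 12 had a gene-end summit. None of these genes was without an entry, and Tlx3 is in both of the last lists. The median of 11 for the 9 genes was thus below that of these lists and above the 3 of all protein-coding genes. Pooled per 100 kb, the 9 genes had 10.4 entries, other neural crest genes 10.8, other sensory neuron genes 8.58 and the dorsal partners 17.5. The 5 paralogues and relatives described below had 14.0.

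**Figure D4:**
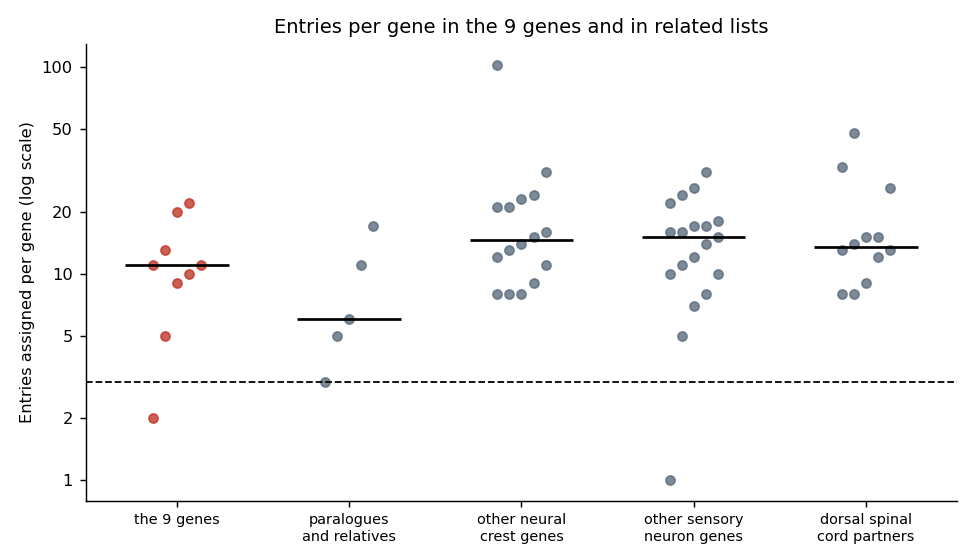
Entries assigned per gene (log scale) in the 9 genes and in related lists; each point is a gene, bars are list medians and the dashed line is the median of 3 over all protein-coding genes. The 9 genes have a median of 11, the paralogues 6, other neural crest genes 14.5, other sensory neuron genes 15 and dorsal spinal cord partners 13.5; Pou4f1 appears in the first and last list.

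Paralogues outside the 9 genes were open as well. Tfap2d, which lies next to Tfap2b with a gap of 35.0 kb, had 11 entries with a highest fold of 5.34 and 33 reads, but 2.36-fold at its ends. Tfap2e had 5 entries and 4.87-fold at an end. Snai3 had 3 entries, with 4.79-fold at an end. The Scratch genes, Snail relatives of neurons, had 6 entries at Scrt1 with 4.31-fold as the highest, and 17 at Scrt2 with 6.95-fold and 133 reads. All 5 had a gene-end summit, as had 65.5% of all protein-coding genes.

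Markers of the cells that a sort could hold were read at gene ends. Of 8 motor neuron markers, 7 had a gene-end summit, with a median of 5.10-fold. Isl2, the exception, had 5 entries away from its ends, the one of highest fold with 120 reads. Over all protein-coding genes, 65.5% had a gene-end summit, with a median of 8.17-fold. The marker lists are small, and their counts were not tested against that share. Of 5 sensory neuron markers, 2 had one, Prdm12 among them with 2.08-fold, while Runx1, Runx3 and Avil had none. Of 4 migrating crest markers, all 4 had one, and Tfap2a and Snai2 of these belong to the 9 genes; Foxd3 had 5.16-fold and Sox10 2.58-fold. None of 3 epidermal and of 4 blood markers had one, and Krt14, Gata1 and Alas2 had no entry at all. Away from gene ends, the blood marker Ptprc had 16 entries with a highest of 12.1-fold and 118 reads, and the epidermal marker Trp63 had 4, up to 5.66-fold. The share of the sorted cells that was not motor neurons is not known, and its part in the entries of the 9 genes was not tested.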

How the data were processed

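ATAC-seq peaks of sorted GFP-positive cells were analysed from 1 pooled, filtered list of both replicates. Per the submitters' processing notes, the tools include MACS2 (version 2.2.7.1) with mm10 as the build, and also BWA (0.7.1.7), SAMtools (1.7.2) and the trimmers Trim Galore and cutadapt (0.6.2). How they were set, how duplicates were treated, whether reads were shifted for the Tn5 cut and what the filter was is not stated in these sources. Per the labels' protocols, libraries had 8 to 9 PCR cycles and paired reads of 75 nt. The deposited fold is a ratio of summit reads to local background. The deposited significance values are the −log10 of a p-value and of a q-value. The deposited score repeats the p-value and was not used, nor was the deposited summit offset other than to place summits.

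Reads and background were solved from fold, as (reads + 1)/(background + 1), and the Poisson −log10 p. For 99.96% of entries the solved reads were whole to within 0.01. The fewest were 11. A site without an entry may have missed the call or been removed by the filter, and is not shown to be closed. Total library depth is unknown.

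Genes came from RefSeq on GRCm38.p6, the assembly behind mm10, with coordinates counted from 1. Of the 9 genes, 8 matched by symbol and 1 by synonym. Strand and starts came from the RefSeq promoter table, which matched 6. Tfap2c, Pou4f3 and Snai2 have no strand here. The genes and lists were chosen with earlier results of these data known. Named entries are those at gene ends and the strongest; named list genes are the 3 with most entries and those without any, and some items are not reported here. No genome sequence was used, so motifs around summits were not searched. Scripts used Python 3.11.15, NumPy 2.4.6, pandas 2.3.3 and SciPy 1.17.1, and were tested on simulated data. Alternatives varied the entries used, the reach, the gene-end window, the gene types and the promoter length.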

Additional observations from a re-analysis of the deposited data

How the results depend on the processing

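No paired analysis was possible because both replicates were pooled into 1 list, so neither could be left out. The 103 entries became 84 with q-values under 0.05, 75 with 1 entry per interval, 97 with a reach of 50 kb and 82 when genes of every type could be the nearest. Among the 50% of entries with the best q-values there were 51. They gave a median of 5 distal entries (1 over all genes) and 5.17 entries per 100 kb (3.17 over all genes). At 4-fold or more 30 entries remained, with a median of 56 reads. The median of distal entries was then 2 (0 over all genes), and density was 3.04 per 100 kb (2.24 over all genes). In that setting 5 genes had a gene-end summit (56.6% of all genes). The median of distal entries per gene was 8 in the main setting (2 over all genes). It was 4 with 1 entry per interval (1 over all genes). With every gene type it was 5 (1 over all genes), and density became 15.9 per 100 kb, against 6.53 over all genes. Pou4f1 then had 7 entries, Pou4f3 5, Snai1 4 and Tfap2c 6. With a reach of 25 kb density became 18.6 per 100 kb (6.83 over all genes). In each of these settings the density of the 9 genes was above that of all genes. With a 500 bp window 7 of the 9 genes had a gene-end summit (60% of all genes), and with 2 kb 9 did (70.5%). The median gene-end fold ran from 5.16 to 6.69 and stayed below that of all genes. In the 100 bases nearest the start, TFAP2 was in 0 promoters (6.89% of all promoters) and the E-box in 1 (6.70%). The CCAAT box was in 0 (13.6%) and the GC box in 1 (21.7%). Leaving out entries with a background of 30 reads or more changed none of the counts, since no entry of the 9 genes had one. The motif search around summits was not run, for want of a genome. Among the 50% with the best q-values, 0 of the 9 genes had 10 or more entries (5.44% of all genes). At 4-fold or more 0 did as well (2.41%). With q-values under 0.05 the count was 5 (12.6%), and with a reach of 50 kb also 5 (14.4%). It was 4 with a reach of 25 kb (12.2%) and 6 without backgrounds of 30 reads or more (16.4%). Across the settings, 20 or more entries were held by 0 to 2 genes (0.288% to 5.27% of all genes). These counts of genes with 10 or more and 20 or more entries were added after seeing the data. Counting error limits what weak sites show.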

Other observations

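Of the 18 nearest neighbours of the 9 genes, 9 had a gene-end fold above the 8.17 of all genes, 7 had a lower one and 2 had no gene-end summit. Pou4f1 had 6.69-fold at its start, and Obi1, 9.42 kb away on that side, had 11.9-fold at a gene end. Drgx had no gene-end summit, and of its neighbours Ercc6 had 12.5-fold and 3425401B19Rik 4.40-fold. The ends of Ttc29 and Rbmxl1, on either side of Pou4f2, had 14.0 and 11.7-fold, and those of Rbm27 beside Pou4f3 had 11.5-fold. Beside Snai2, Efcab1 had 10.1-fold and LOC115488637 no gene-end summit. Among the lower ones were both neighbours of Tfap2a, Ofcc1 with 4.56-fold and Gcnt2 with 1.89-fold, and both of Tfap2b, Tfap2d with 2.36-fold and Pkhd1 with 2.199-fold. Bmp7 beside Tfap2c had 5.59-fold and Fam209 none, and beside Snai1 Rnf114 had 5.70-fold and Ube2v1 9.13-fold. Within 100 kb of the span of Snai1 there were 29 entries, of which 20 belonged to other genes by the rule. Within 100 kb of Tfap2a there were 21, and only 1 did not belong to it.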
